A study of Mus musculus with 12 samples.

Results

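The 10 genes described here build, bind or cut hyaluronan, and were followed in ribosome-bound mRNA of mouse melanomas by their symbols in a table of 24421 genes. They comprised 3 link protein genes (Hapln1, Hapln3 and Hapln4), 3 lectican proteoglycan genes (Vcan, Bcan and Ncan), 2 hyaluronan synthase genes (Has2 and Has3) and 2 hyaluronidase genes (Hyal1 and Hyal2). The list was chosen by function and by measured levels of these genes in the same libraries, with their differences between tumour lines and lanes already in view, so those differences are described for the 10 genes and not tested. Tumours were grown subcutaneously for 12 days from the highly metastatic melanoma line B16F10 (n = 7 libraries) and from the poorly metastatic line B16F0 (n = 5 libraries). All hosts were C57BL/6 mice carrying Rpl22fl/flHA and Cdh5(PAC)-CreERT2 and given tamoxifen, so that Cre, driven by the promoter of the endothelial cadherin gene Cdh5, puts a tag on the ribosomes of endothelial cells in both groups alike. Ages are not stated in the labels, and whether each library stands for its own animal is not stated, so every p-value measures the spread between these libraries only. Means are given with the SD over the 7 B16F10 or the 5 B16F0 libraries.

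Hyaluronan is a very long sugar polymer that synthases in the plasma membrane (the Has proteins) spin out of the cell. Lecticans, large proteoglycans with chondroitin sulfate side chains, bind it at one end, and link proteins (the Hapln family) clamp the lectican to the polymer, which gives a swollen, hydrated matrix. Hyaluronidases cut the polymer into fragments, and in tumours hyaluronan is known as a component of the stroma and of the coat around migrating cells.

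Library totals ran from 5322510 to 20569186 gene counts. The precipitates, labelled as endothelial, held both endothelial and melanocytic transcripts. Summed over 20 endothelial markers the level was 771 to 5440 CPM (read counts scaled to the TMM-adjusted library total) in B16F10 and 1050 to 5924 CPM in B16F0. Summed over 17 melanocytic markers it was 11634 to 24321 CPM in B16F10 and 14520 to 24708 CPM in B16F0. All 20 and all 17 markers were detected, so a transcript below cannot be assigned to vessel or tumour cells, and fewer cells of a type and less RNA per cell cannot be told apart. Of the markers, Oca2 was lower in B16F10 among the melanocytic ones and Perp higher among the 2 fitted of 8 keratinocyte ones (edgeR). The keratinocyte markers summed to 6.41 to 18.4 CPM in B16F10 and 4.06 to 7.44 CPM in B16F0. The highest sums, 18.4 and 13.8 CPM, were those of B16F10 replicates 1 and 2. For 12 macrophage markers the sum was 48.6 to 283 CPM in B16F10 and 88.6 to 304 CPM in B16F0, and for 12 neural and glial markers 99.3 to 183 CPM in B16F10 and 106 to 202 CPM in B16F0. Libraries came from sequencing lanes 1, 2 and 6, with both groups on each. The names of the 7 libraries of lanes 1 and 2 begin with a 6-digit prefix whose meaning is not stated. In lane 1 it joins B16F10 replicate 3 with B16F0 replicate 2 and B16F10 replicate 4 with B16F0 replicate 3, and over all fitted genes the deviations of these pairs from their group means correlated by 0.737 and 0.547. In lane 2 both B16F10 libraries share 1 prefix and the B16F0 library has another, so prefix and tumour line cannot be told apart there. Both B16F10 libraries of lane 2 (replicates 1 and 2) stood apart, with 960 and 778 CPM of reads on 1501 olfactory, vomeronasal and taste receptor genes, against 10.6 CPM in the B16F0 library of that lane (replicate 1). Their 12 fibroblast and pericyte markers summed to 2354 and 2775 CPM, against 329 CPM in that B16F0 library. The ribosomal RNA precursor Rn45s took 31.4% of counts in B16F10 replicate 5 and 8.91% in B16F0 replicate 5.

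Link protein genes of vertebrates sit next to lectican genes, and the same holds here on the mouse build GRCm38 (GENCODE release M21). Hapln1 (chromosome 13, 89539796 to 89611652, plus strand) faces Vcan (89655312 to 89742509, minus strand) tail to tail across 43.7 kb with no protein-coding gene between them. Hapln4 (chromosome 8, 70083457 to 70090862, plus strand) faces Ncan (70093085 to 70120873, minus strand) across 2.22 kb. Hapln2 and Bcan lie on chromosome 3, and Hapln3 and Acan, the aggrecan gene, on chromosome 7. Promoter windows of 250 bases before to 50 after the start were taken from RefSeq on GRCm38.p6, where 7 of the 10 genes matched, all but Hapln4, Has2 and Has3. The windows of Hapln1 and Vcan are shown because these neighbouring genes stood at opposite ends of their range in the lane 2 libraries, as given with their values. Capitals mark matches, on either strand, to any of 6 motifs. The GC box was searched as GGGCGG and the CCAAT box by the letters of its name. The TATA box was searched as TATAAA, and the E-box of basic helix-loop-helix factors as CACGTG. The core of the M-box known from melanocyte genes was searched as CATGTG, and the motif of TEAD factors as GGAATG.
Hapln1, chr13:89540386-89540685, plus strand: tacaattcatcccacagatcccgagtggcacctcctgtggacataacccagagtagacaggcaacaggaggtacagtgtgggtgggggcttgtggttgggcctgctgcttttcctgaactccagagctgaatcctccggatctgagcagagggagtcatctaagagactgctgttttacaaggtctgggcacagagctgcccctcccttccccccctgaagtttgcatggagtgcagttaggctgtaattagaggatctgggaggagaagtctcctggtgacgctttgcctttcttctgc
Vcan, chr13:89742463-89742762, minus strand: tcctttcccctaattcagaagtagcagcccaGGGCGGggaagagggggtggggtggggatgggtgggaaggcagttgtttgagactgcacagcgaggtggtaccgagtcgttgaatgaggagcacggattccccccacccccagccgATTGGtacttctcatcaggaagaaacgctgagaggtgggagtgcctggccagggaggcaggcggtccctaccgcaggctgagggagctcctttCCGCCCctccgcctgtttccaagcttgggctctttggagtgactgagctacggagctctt
The Hapln1 window held none of the 6 motifs, and the Vcan window held 2 GC boxes and 1 CCAAT box. The Vcan window covers the GENCODE start of that gene, while the Hapln1 window lies wholly inside the gene span, past its start. Of all 32851 RefSeq promoter windows, 35.7% hold a GC box, 37.4% a CCAAT box, 13.6% a TATA box, 7.15% an E-box, 14.2% the M-box core and 14.7% the TEAD motif. The GC content was 54.3% for Hapln1 and 61% for Vcan, beside a median of 52.7% over all windows.

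Among the link proteins, Hapln4 was low in every B16F10 library. Hapln4, also known as Bral2, is a link protein of the brain, where it takes part in the matrix around synapses. It stood at 1.28, 0.70, 0.18, 1.66, 1.62, 0.44 and 1.59 CPM in B16F10 replicates 1 to 7, against 14.4, 10.3, 6.74, 14.0 and 16.8 CPM in B16F0 replicates 1 to 5. The highest B16F10 library lay below the lowest B16F0 library. In raw reads this was 76 counts over the 7 B16F10 libraries and 874 counts over the 5 B16F0 libraries. The means were 1.07 ± 0.62 CPM in B16F10 tumours, against 12.5 ± 3.94 CPM in B16F0 tumours. The log2 fold change of B16F10 over B16F0, fitted with the lane as a factor, was -3.65 ± 0.43 (SE). The differences of mean log2 CPM were -3.44, -3.71 and -3.65 in lanes 1, 2 and 6. Each B16F10 value rests on 3 to 21 reads. With the melanocytic score, the fibroblast and pericyte score or the receptor gene reads as a covariate, as defined further on, the fitted value was -4.17, -3.65 and -3.97.

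**Figure D1:**
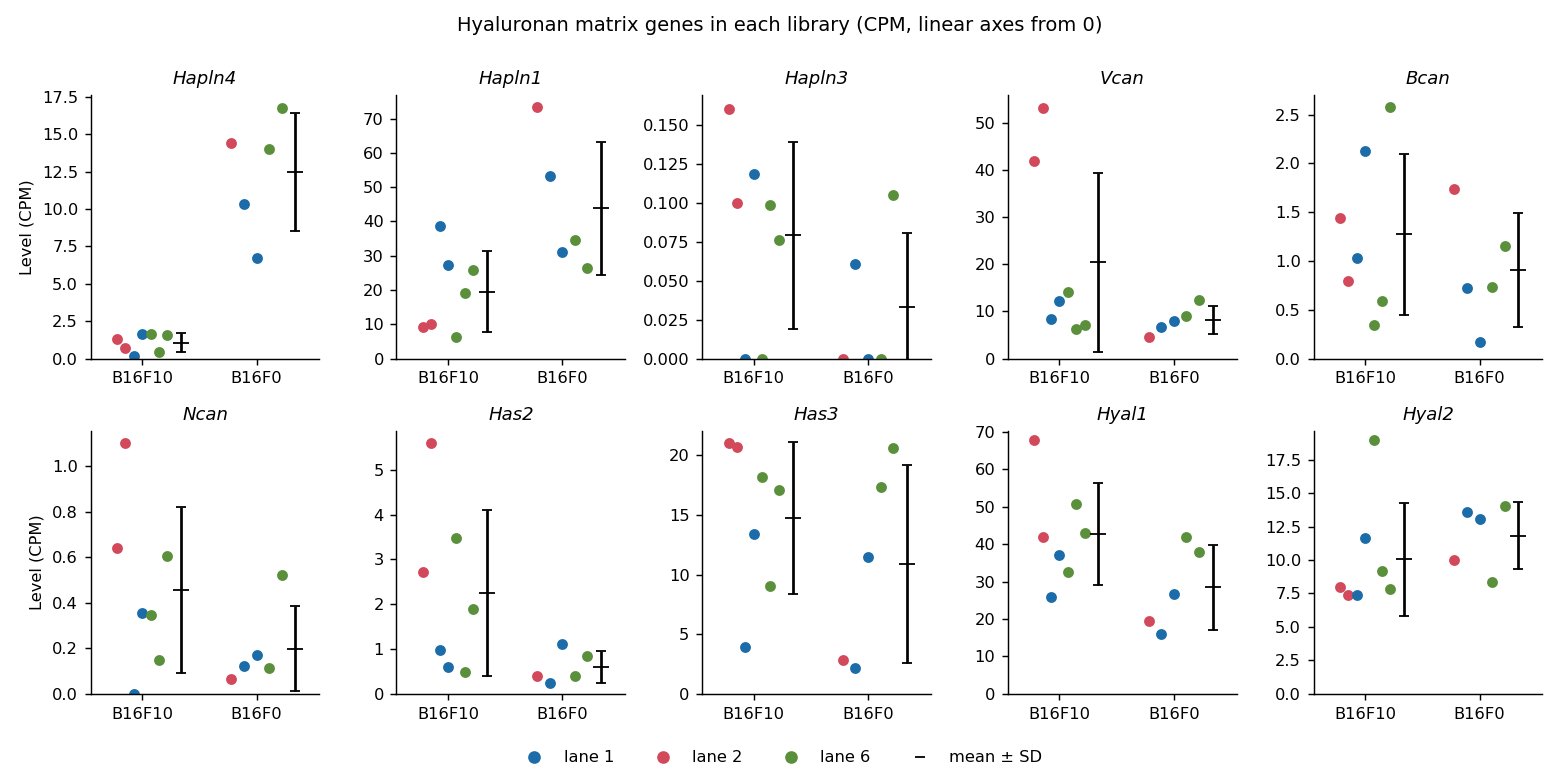
Level of each of the 10 genes in CPM (linear axes from 0) in B16F10 (left, n = 7) and B16F0 (right, n = 5). Points are libraries coloured by lane and bars are mean ± SD. Hapln4 has separate groups, while the tallest Vcan points are both B16F10 libraries of lane 2.

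Hapln1, the cartilage link protein that also serves in developing heart and brain, was the most abundant link protein gene per kilobase of exon. It stood at 9.14, 10.2, 38.5, 27.3, 6.37, 19.2 and 25.8 CPM in B16F10 replicates 1 to 7, against 73.5, 53.3, 31.2, 34.5 and 26.5 CPM in B16F0 replicates 1 to 5. The groups overlapped, since B16F10 replicates 3 and 4 reached the lower B16F0 libraries. The means were 19.5 ± 11.8 CPM in B16F10 tumours, against 43.8 ± 19.5 CPM in B16F0 tumours, with a fitted log2 fold change of -1.18 ± 0.40 (SE). The difference was -0.33 in lane 1, -2.91 in lane 2 and -1.03 in lane 6. Without lane 2 the fitted value was -0.60 ± 0.34 (SE). With the receptor gene reads as a covariate, a fit added after seeing the data, it was -0.31 ± 0.27 (SE). Without B16F0 replicate 1, the only B16F0 library of lane 2, it was -0.61. For every gene that fit leaves lane 2 without a contrast of the lines. It is therefore no check separate from the fit without lane 2. With the melanocytic score the fitted value of Hapln1 was -0.58 ± 0.38 (SE), and with the fibroblast and pericyte score -0.44 ± 0.26 (SE). The fit with the fibroblast and pericyte score as a covariate was, for all genes, likewise not among the planned ones.

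Hapln3, a widely expressed link protein, was at or near the limit of detection with 6 reads in all B16F10 libraries and 2 in all B16F0 libraries. It had no read in B16F10 replicates 3 and 5, where 3 counts, the limit that a count of 0 allows, equal 0.182 and 0.348 CPM. It had none in B16F0 replicates 1, 3 and 4 either, with limits of 0.201, 0.256 and 0.169 CPM. No difference is readable at this depth.

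Among the lecticans, Vcan was the most abundant per kilobase of exon, and 2 libraries stood far above the rest. Vcan encodes versican, the lectican of blood vessels and of tumour stroma. It stood at 41.8, 53.2, 8.41, 12.1, 14.0, 6.21 and 7.20 CPM in B16F10 replicates 1 to 7, against 4.62, 6.65, 8.01, 9.02 and 12.5 CPM in B16F0 replicates 1 to 5. The pair of high values are the B16F10 libraries of lane 2, and the other 5 B16F10 libraries lie within or close to the B16F0 range. The fitted log2 fold change was 0.62 ± 0.46 (SE), with differences of 0.46, 3.31 and -0.30 in lanes 1, 2 and 6. Without lane 2 it was 0.10 ± 0.30 (SE), and with the receptor gene reads as a covariate it was -0.20 ± 0.30 (SE), below 0. With the fibroblast and pericyte score as a covariate it was -0.10 ± 0.28 (SE). Without B16F0 replicate 1, which again leaves lane 2 without a contrast, it was 0.07.

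Bcan and Ncan, which encode brevican and neurocan of the brain matrix, were scarce. Bcan averaged 1.27 ± 0.82 CPM in B16F10 tumours, against 0.90 ± 0.58 CPM in B16F0 tumours, with 3 to 34 reads per B16F10 library and 2 to 26 per B16F0 library. Its log2 fold change was 0.53 ± 0.59 (SE). It was 0.95 ± 0.68 (SE) without lane 2, 1.07 ± 0.64 (SE) with the fibroblast and pericyte score and 0.92 ± 0.72 (SE) with the receptor gene reads as a covariate. Leaving out single libraries gave 0.11 (B16F10 replicate 7) to 0.94 (B16F0 replicate 1, lane 2 again without a contrast). The values were 0.27 without B16F10 replicate 4 and 0.22 without B16F0 replicate 3. The difference of Bcan changed direction between lanes, at 1.62, -0.62 and -0.10 in lanes 1, 2 and 6. Ncan had 32 reads over all B16F10 libraries and 12 over all B16F0 libraries, and was not fitted. Its highest value, 1.10 CPM, was in B16F10 replicate 2, where the receptor gene reads stood at 778 CPM.

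**Figure D2:**
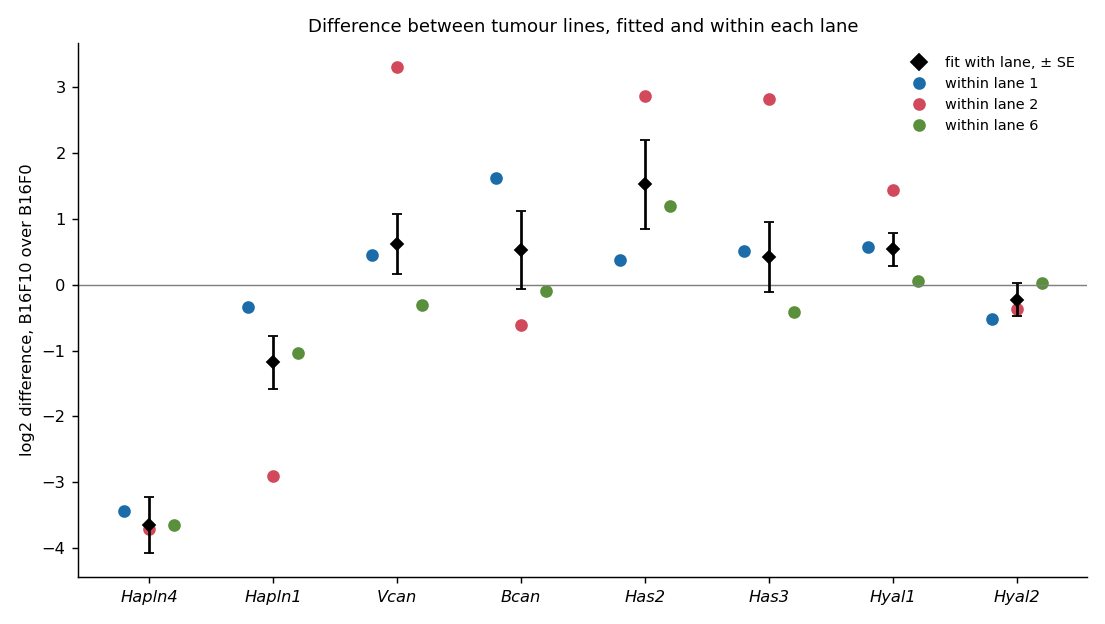
Log2 difference of B16F10 over B16F0 for the 8 fitted genes. Diamonds are the fit with lane ± SE and circles the difference within each lane. Hapln4 lies between -3.44 and -3.71 in the 3 lanes, and Vcan, Has2 and Has3 are above 2.8 in lane 2.

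Both synthase genes stood higher in the B16F10 libraries than in the B16F0 library of lane 2. Has2, the synthase of the developing heart and of stromal cells, stood at 2.73, 5.60, 0.97, 0.59, 3.48, 0.49 and 1.90 CPM in B16F10 replicates 1 to 7, against 0.40, 0.24, 1.11, 0.39 and 0.84 CPM in B16F0 replicates 1 to 5. The 4 highest values are B16F10 libraries, and the other 3 lie within the B16F0 range. The fitted log2 fold change was 1.53 ± 0.67 (SE), on 159 and 38 reads in B16F10 and B16F0. It was 1.05 ± 0.71 (SE) without lane 2, 0.53 ± 0.54 (SE) with the fibroblast and pericyte score and 0.64 ± 0.59 (SE) with the receptor gene reads as a covariate. Within lanes it was 0.37, 2.87 and 1.19 in lanes 1, 2 and 6. Its exons share 182 bases with Has2os on the opposite strand.

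Has3, a synthase known from skin epithelium, was more abundant than Has2 per kilobase of exon. It stood at 21, 20.7, 3.93, 13.4, 18.2, 9.02 and 17.1 CPM in B16F10 replicates 1 to 7, against 2.81, 2.18, 11.5, 17.3 and 20.6 CPM in B16F0 replicates 1 to 5. Both groups spanned nearly the same range. The log2 fold change was 0.43 ± 0.53 (SE). Its direction varied between lanes, at 0.51, 2.82 and -0.42 in lanes 1, 2 and 6, and it was -0.05 ± 0.48 (SE) without lane 2. Left out singly, B16F0 replicates 1, 2 and 3 gave -0.07 (lane 2 again without a contrast), 0.19 and 0.84. Likewise B16F10 replicates 3, 4 and 6 gave 0.64, 0.14 and 0.65. With the melanocytic score as a covariate it was -0.42 ± 0.34 (SE), with the fibroblast and pericyte score -0.10 ± 0.49 (SE), and with the receptor gene reads -0.60 ± 0.36 (SE). Its exons share 352 bases with Chtf8 on the opposite strand, and the sources used here do not give the strand setting of the counting. Whether reads in these bases were counted for Has3, for Chtf8 or for neither is therefore not known.

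Of the hyaluronidase genes, Hyal1 was the more abundant per kilobase of exon. Hyal1 encodes a lysosomal hyaluronidase and Hyal2 one anchored to the cell surface. Hyal1 stood at 67.7, 41.8, 25.8, 37.1, 32.4, 50.7 and 43.0 CPM in B16F10 replicates 1 to 7, against 19.5, 16, 26.8, 42.0 and 37.9 CPM in B16F0 replicates 1 to 5. The groups overlapped, with means of 42.6 ± 13.6 CPM in B16F10 tumours, against 28.4 ± 11.3 CPM in B16F0 tumours. The log2 fold change was 0.54 ± 0.25 (SE), within lanes 0.58, 1.44 and 0.05 in lanes 1, 2 and 6. It was 0.30 ± 0.22 (SE) without lane 2 and 0.29 without B16F0 replicate 1, which again leaves lane 2 without a contrast. With the melanocytic score as a covariate it was 0.24 ± 0.23 (SE), and with the receptor gene reads 0.24 ± 0.25 (SE). Of its 3777 exonic bases 1920 are shared with Naa80 and 159 with Hyal3 on the same strand. Naa80 has no row under that symbol, but Nat6, which RefSeq lists as a synonym of both Naa80 and Hyal1, has one. Counts of these genes may be split between them or left out in the shared bases. Hyal2 averaged 10.1 ± 4.21 CPM in B16F10 tumours, against 11.8 ± 2.49 CPM in B16F0 tumours. Its log2 fold change was -0.22 ± 0.25 (SE). It was -0.50 ± 0.29 (SE) with the melanocytic score, -0.43 ± 0.29 (SE) with the fibroblast and pericyte score and -0.47 ± 0.30 (SE) with the receptor gene reads as a covariate. Without both libraries rich in Rn45s it was -0.34 ± 0.19 (SE), and left out singly, B16F10 replicates 3, 5 and 7 gave -0.10, -0.42 and -0.15 and B16F0 replicate 4 gave -0.39.

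With the library-name prefix in place of the lane, a fit added after seeing the data, the log2 fold change of Hapln4 was -3.67 ± 0.48 (SE), and in the pairs of libraries that share a prefix its difference was -4.96 and -1.93. That of Hapln1 was -0.60 ± 0.30 (SE), with -0.47 and -0.19 in the pairs. Vcan and Has3 were at 0.07 ± 0.26 and -0.01 ± 0.26 (SE), and Hyal1 at 0.30 ± 0.18 (SE). Vcan, Has3 and Hyal1 were higher in B16F10 in both pairs. Has2 was at 1.17 ± 0.68 (SE), higher in 1 pair and lower in the other. No prefix of lane 2 holds both tumour lines. Lane 2 therefore adds nothing to the contrast in the prefix fit, as in the fit without lane 2.

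The 8 genes that were fitted had passed a minimum count in at least 5 libraries, which Hapln4 could meet on B16F0 alone. Since measured levels in these libraries chose the list, the counts that follow describe it and are no test of it. Of the 8, 1 (Hapln4, lower in B16F10) passed an adjusted p of 0.05 in the quasi-likelihood test of edgeR over all 13534 fitted genes, where 2.77% passed (1.30% higher and 1.47% lower). It was also the 1 fitted gene of the 8 whose groups did not overlap, beside 1.46% of all fitted genes with B16F10 below B16F0.

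Levels of different genes were compared per kilobase of exon. In B16F10 the order of the mean level was Hyal1 (11.3 ± 3.6 CPM per kb), Hapln1 (3.3 ± 1.99), Hyal2 (3.05 ± 1.28), Has3 (2.31 ± 1.00), Vcan (1.41 ± 1.31), Has2 (0.53 ± 0.44), Bcan (0.31 ± 0.20), Hapln4 (0.27 ± 0.16), Ncan (0.064 ± 0.051) and Hapln3 (0.0225 ± 0.0170; all SD, n = 7). Neighbours in that order overlapped in mean ± SD, except Hyal1 above Hapln1 and Hapln4 above Ncan. In B16F0 the order was Hyal1 (7.53 ± 3.00 CPM per kb), Hapln1 (7.42 ± 3.3), Hyal2 (3.59 ± 0.76), Hapln4 (3.17 ± 1.00), Has3 (1.71 ± 1.31), Vcan (0.56 ± 0.20), Bcan (0.22 ± 0.14), Has2 (0.14 ± 0.09), Ncan (0.028 ± 0.026) and Hapln3 (0.0094 ± 0.0136; all SD, n = 5). Here neighbours overlapped in mean ± SD, except Has2 above Ncan. Hapln4 was the eighth of the 10 in B16F10 and the fourth in B16F0.

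Neighbouring genes stood at different levels. In B16F0 libraries Hapln4 stood at 3.17 ± 1.00 CPM per kb beside 0.028 ± 0.026 for Ncan, its neighbour on chromosome 8 (SD, n = 5 each). On chromosome 13 Hapln1 stood at 3.3 ± 1.99 and Vcan at 1.41 ± 1.31 CPM per kb in B16F10 (SD, n = 7 each), against 7.42 ± 3.3 and 0.56 ± 0.20 CPM per kb in B16F0 (SD, n = 5 each). B16F10 replicates 1 and 2 held the highest Vcan and, after replicate 5, the lowest Hapln1 of that group, and B16F0 replicate 1 held the lowest Vcan and the highest Hapln1 of all 12 libraries. Hapln2, the link protein of myelinated axons, had 13 reads over all B16F10 libraries and 0 over all B16F0 libraries, with 7 of the 13 in B16F10 replicate 5 and 4 in replicate 2. Acan had 52 reads in B16F10 and 3 in B16F0. Most of the Acan reads, 11 and 21, fell in B16F10 replicates 1 and 2.

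**Figure D3:**
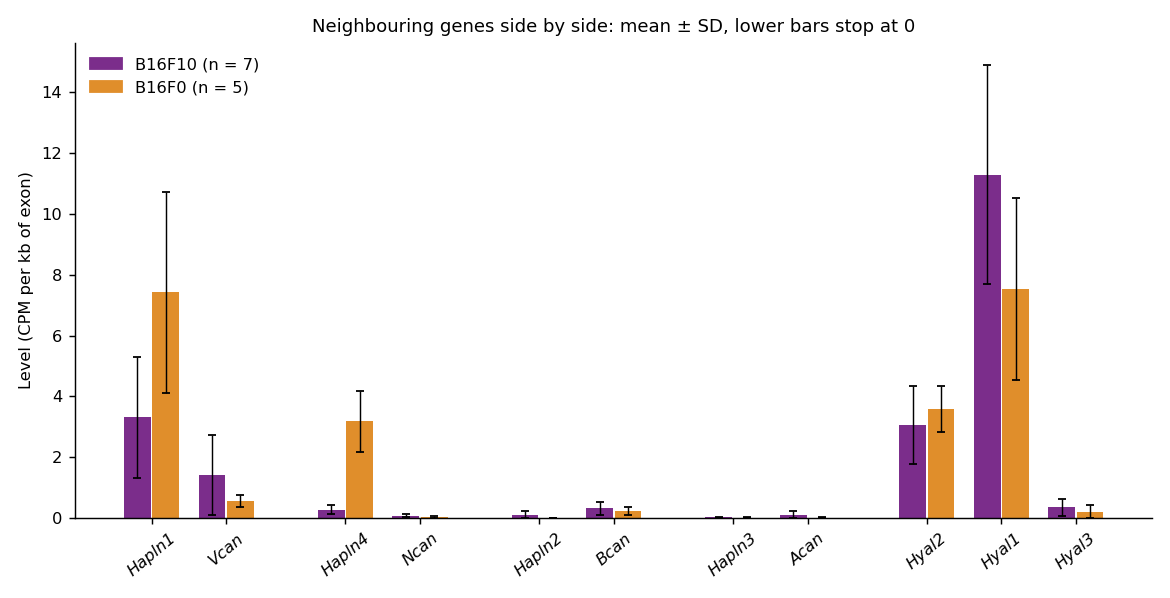
Mean level (CPM per kb of exon) ± SD of neighbouring genes, in B16F10 (purple, left bars, n = 7) and B16F0 (orange, right bars, n = 5). Error bars stop at 0. Hapln4 is at 0.27 in B16F10 and 3.17 in B16F0, and Ncan beside it is under 0.1 in both.

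Whether these genes vary with the cell types in a precipitate was asked with slopes fitted beside terms for tumour line and lane. These terms are additive, so a difference between the lines that varies by lane can enter the slopes. The spread over libraries was also in view when the genes were chosen. For each library a score was taken as the mean log2 CPM of a marker list, and the slope of each of 13534 genes on it was fitted with limma-voom with tumour line and lane in the model. None of the 8 fitted genes followed the endothelial score (limma, 0 also at an unadjusted p under 0.05, smallest adjusted p 0.262), where 4.81% of all genes had a positive and 0.436% a negative slope past the threshold. Hyal2 had a slope of 0.29 ± 0.14 (SE), Hapln4 one of -0.10 ± 0.21 (SE) and Vcan one of 0.15 ± 0.33 (SE) log2 CPM per score unit. The range of this score rests on 3 libraries, B16F10 replicates 4 and 5 and B16F0 replicate 3, with scores of 7.17, 6.60 and 7.28 against 4.40 to 5.38 in the other 9. Without those 3 libraries no gene of 13712 followed the score (limma). Without B16F0 replicate 1 Hapln1 passed with a negative slope (-0.48, limma adjusted p = 0.0248, with a range of 0.0248 to 0.9999 over 21 alternatives).

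On the melanocytic score, 2 of the 8 passed, Hapln1 upward and Has3 downward, where 16.2% of all genes had a positive and 17.7% a negative slope past the threshold. The slope of Hapln1 was 2.03 ± 0.60 (SE; limma adjusted p = 0.0234) and that of Has3 was -3.42 ± 0.73 (SE; 0.00585). Hapln4 had a slope of -0.28 ± 0.81 (SE; 0.813). A share of 2 in 8 is no higher than that of all genes. Hapln1 lost its call when replicate 1 or 3 of B16F10 or replicate 1 or 3 of B16F0 was left out (limma adjusted p from 0.0514 to 0.0990), with slopes of 1.88, 2.22, 1.38 and 1.84. Without the 3 libraries of highest score neither passed, with a slope of 2.80 ± 1.46 (SE; limma adjusted p = 0.294) for Hapln1 and -1.89 ± 1.00 (SE; 0.298) for Has3. With the library-name prefix in place of the lane neither passed, with 2.44 ± 1.29 (SE; 0.287) for Hapln1 and -1.51 ± 1.14 (SE; 0.455) for Has3.

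On the fibroblast and pericyte score, 1 of the 8 passed, Vcan, with a slope of 1.01 ± 0.16 (SE; limma adjusted p = 0.0254), where 0.332% of all genes had a positive and 0.0517% a negative slope past the threshold. Has2 had a slope of 1.17 ± 0.32 (SE; 0.141) and Hapln1 one of -0.82 ± 0.16 (SE; 0.0629). The call of Vcan was lost when replicate 1, 2, 6 or 7 of B16F10 or replicate 1 or 5 of B16F0 was left out (limma adjusted p from 0.0696 to 0.428), with slopes from 0.61 to 1.03. It was also lost without the 3 libraries of highest score (0.62, 0.325) and with the library-name prefix in place of the lane (0.60 ± 0.19 SE, limma adjusted p = 0.125). The score stood at 6.15 and 6.48 in B16F10 replicates 1 and 2, the libraries richest in receptor gene reads, and at 2.51 to 4.57 in the other 10. In B16F0 replicate 1, the B16F0 library of lane 2, it stood at 3.39. Vcan differed between the lines by 3.31 in that lane, against 0.46 and -0.30 in lanes 1 and 6. The slope of Vcan can take up that known lane 2 difference, so it is a description and not separate support.

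**Figure D4:**
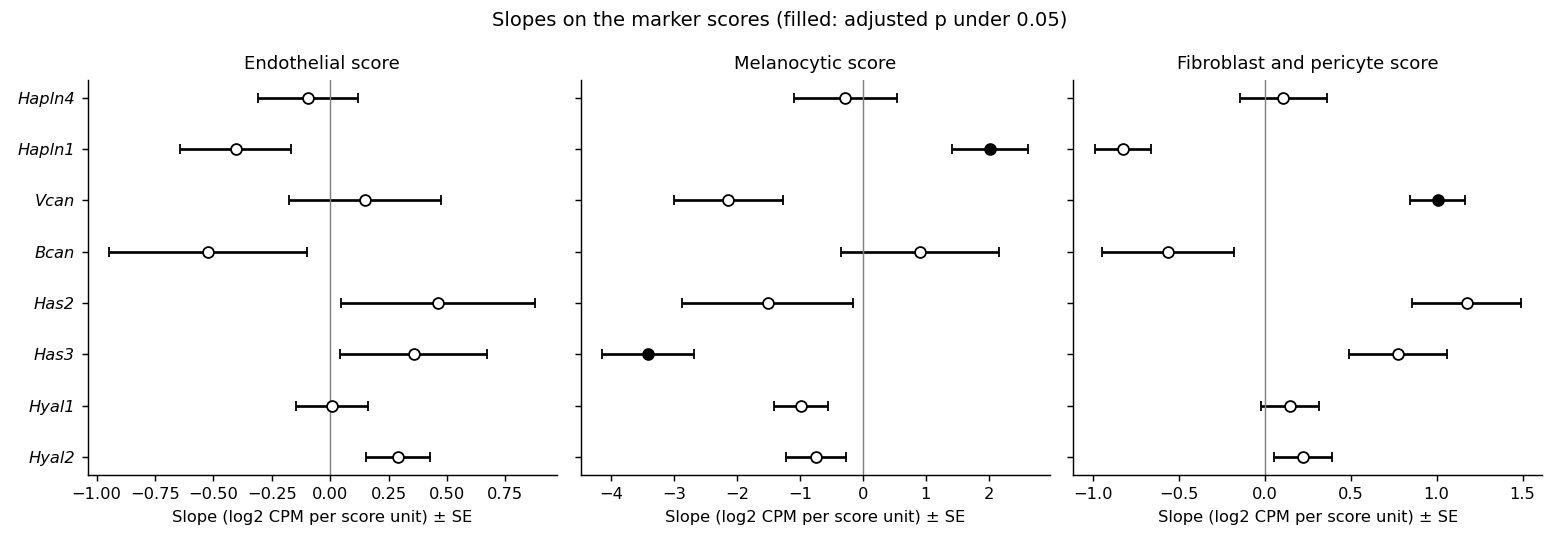
Slopes (log2 CPM per score unit) ± SE of the 8 fitted genes on the endothelial, melanocytic, and fibroblast and pericyte scores over 12 libraries. Filled points passed an adjusted p of 0.05, namely Hapln1 and Has3 on the melanocytic score and Vcan on the fibroblast and pericyte score.

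The receptor gene reads were taken as a further library measure after these genes had been seen to stand apart in the lane 2 libraries, so their slopes restate that pattern and are a description, not support for it. On their log2 CPM, 3 of the 8 passed, where 10.3% of all genes had a positive and 8.72% a negative slope past the threshold. Vcan and Has3 had slopes of 0.49 ± 0.08 (SE; limma adjusted p = 0.00977) and 0.53 ± 0.12 (SE; 0.0161) log2 CPM per doubling. Hapln1 had a slope of -0.39 ± 0.07 (SE; 0.0104). Hapln4 had a slope of 0.08 ± 0.12 (SE; 0.634). Without the 3 libraries of lane 2 none of the 8 passed (limma), with slopes of 0.28 for Vcan, 0.50 for Has3 and -0.36 for Hapln1 (adjusted p = 0.179, 0.122 and 0.115). Without B16F0 replicate 1, which leaves no B16F0 library in lane 2, none passed either. The slopes were then 0.25, 0.49 and -0.37 (limma adjusted p = 0.172, 0.0829 and 0.0636). With the library-name prefix in place of the lane these were 0.31, 0.25 and -0.36 (0.236, 0.318 and 0.190), and Hyal2 passed with 0.50 ± 0.11 (SE; 0.0383). The part of these reads and of the fibroblast and pericyte transcripts in the differences between the tumour lines was not tested.

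**Figure D5:**
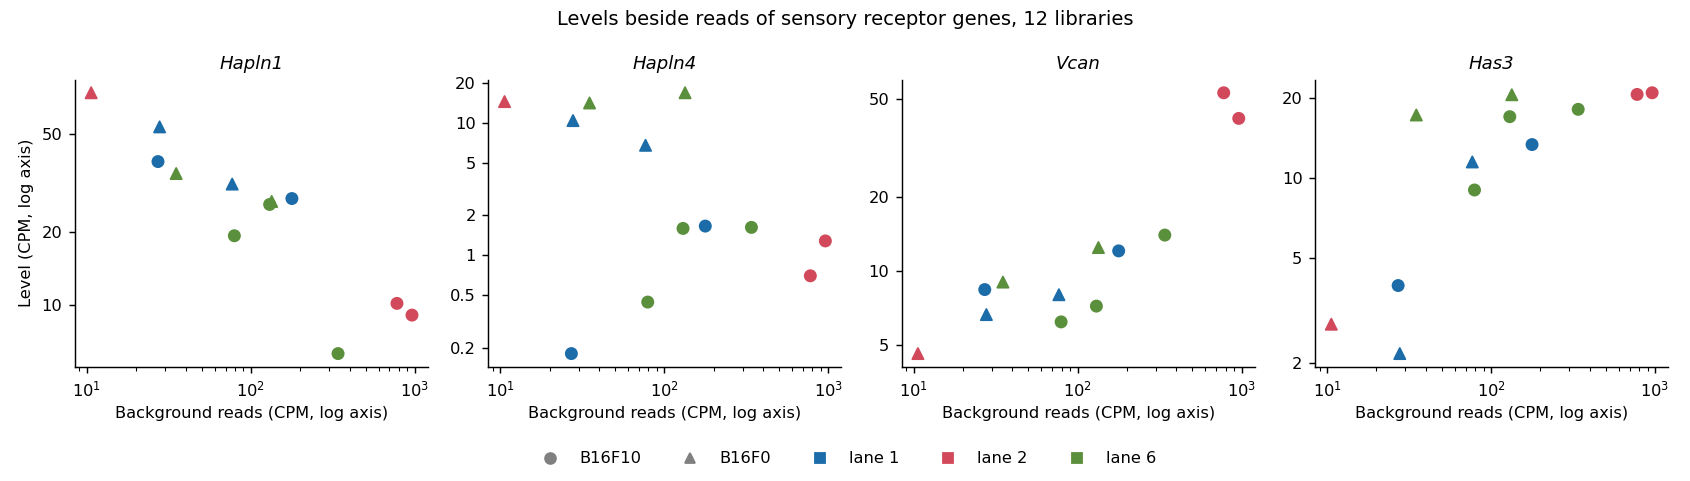
Level of 4 genes (CPM) against the reads on 1501 olfactory, vomeronasal and taste receptor genes (CPM, both axes log) in each library. Circles are B16F10 and triangles B16F0, coloured by lane. Hapln4 is at most 1.66 in B16F10 and at least 6.74 in B16F0, where no library is above 134 on the horizontal axis, while Hapln1 is lowest and Vcan highest among libraries with many of them.

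The genes whose pattern over the 12 libraries was most like that of a member were named by Pearson r of log2 CPM centred within lanes, as a description over libraries that share lanes and tumour lines. Only lanes were centred, so the difference between tumour lines stays in r. The genes picked for Hapln4 therefore had to be lower in B16F10. For Hapln4 they were Lonrf2 (r = 0.96), Diras1 (0.96) and Igf2bp3 (0.95), all 3 lower in B16F10 by -2.0, -2.29 and -1.62 on the log2 scale. For Hapln1 they were Spcs1 (r = 0.98), Mr1 (0.98) and Sort1 (0.97). For Vcan they were Col12a1 (r = 0.99), a fibril-associated collagen gene, Mpp4 (0.98) and Tm6sf2 (0.97). Col12a1 averaged 63.4 CPM in B16F10 and 14.9 CPM in B16F0. Mpp4 averaged 1.70 and 1.10 CPM and Tm6sf2 0.80 and 0.45 CPM in the same groups. The Vcan difference was largest in lane 2 (3.31, against 0.46 and -0.30 in lanes 1 and 6). Lane 2 therefore weighs most in these r values.

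The wider pathway was covered by 6 lists of 112 other genes, 85 of which were fitted. Of the 85, 0 were higher and 2 lower in B16F10 in edgeR's test over all genes, beside 1.30% higher and 1.47% lower over all fitted genes, a share close to that background. At an unadjusted p under 0.05 edgeR gave 6 higher and 9 lower (7.13% and 7.71% of all genes). DESeq2 called 2 higher and 3 lower (3.02% and 3.3% of all genes), and limma-voom 0 and 1 (1.29% and 1.5%). The 5 of DESeq2 were Gfpt2, Itih3 and the syndecan gene Sdc4, lower, and the proteoglycan genes Cspg4 and Tgfbr3, higher, the last 3 named after their values were seen. The median log2 fold change of the 85 was 0.09, beside 0.02 over all fitted genes. The first called gene was Itih3, a heavy chain of the inter-alpha-trypsin inhibitor family that is transferred to hyaluronan. It stood at 0 to 1.12 CPM (median 0.23) in B16F10 and at 1.57 to 4.92 CPM (median 2.30) in B16F0, with no overlap. It had 0 to 8 reads per B16F10 library and 25 to 86 per B16F0 library, so it could enter the fit on B16F0 alone and had then to differ. B16F10 over B16F0 gave -3.93 ± 0.72 (SE) on the log2 scale (adjusted p = 0.0101 in edgeR). The difference was -3.72, -0.73 and -3.87 in lanes 1, 2 and 6. Its 2 highest B16F10 values were those of lane 2, and its slope on the receptor gene reads was 0.53 ± 0.14 (SE; limma adjusted p = 0.0257). The call was lost without both libraries rich in Rn45s (-3.86, edgeR adjusted p = 0.0664, with a range of 9.76e-07 to 0.425 over 26 alternatives). The other was Gfpt2, which makes the hexosamine precursor of the polymer. Gfpt2 averaged 7.46 ± 2.85 CPM in B16F10 tumours, against 14.5 ± 6.54 CPM in B16F0 tumours, a log2 difference of -0.94 ± 0.23 (SE) that edgeR gave an adjusted p of 0.0499. That call was lost without any 1 library but B16F10 replicate 3 and B16F0 replicate 3 (edgeR adjusted p from 0.0560 to 0.231), with log2 fold changes of -0.97 to -0.75, and in 18 of 26 alternatives in all.

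By list, 1 of 7 fitted genes of hyaluronan synthesis and sugar precursors (Gfpt2) and 1 of 11 receptors and binding proteins (Itih3) fell, beside 1.47% of all fitted genes. Of 5 fitted genes of hyaluronan breakdown, 0 passed (edgeR, 1 higher and 1 lower at an unadjusted p under 0.05; DESeq2 and limma-voom 0). Its members with the most reads were the lysosomal enzymes Hexa, at 196 ± 43.0 CPM in B16F10 tumours, against 254 ± 65.4 CPM in B16F0 tumours, and Gusb, at 85.1 ± 35.4 and 108 ± 40.3 CPM in the same groups. Of 9 lectican partners and proteases 0 passed (edgeR, 0 higher and 1 lower unadjusted; DESeq2 and limma-voom 0). The versican-cutting proteases Adamts1 and Adamts4 had the most reads, Adamts1 at 262 ± 59.4 CPM in B16F10 tumours, against 379 ± 97.6 CPM in B16F0 tumours, and Adamts4 at 117 ± 53.0 and 124 ± 66.1 CPM in the same groups. Of 28 genes of chondroitin sulfate assembly and turnover 0 passed (edgeR, 0 higher and 2 lower unadjusted; DESeq2 and limma-voom 0), with Chsy3, a chondroitin synthase, at 457 ± 163 CPM in B16F10 tumours, against 520 ± 135 CPM in B16F0 tumours. Fam20b, a kinase of the linker sugar, averaged 202 ± 63.4 CPM in B16F10 tumours, against 198 ± 56.3 CPM in B16F0 tumours. Of 25 other proteoglycans 0 passed (edgeR, 5 higher and 1 lower unadjusted; DESeq2 2 higher and 1 lower; limma-voom 0). Hspg2, the basement membrane proteoglycan perlecan, and Esm1, a proteoglycan of endothelial tip cells, had the most reads of these, Hspg2 at 563 ± 268 CPM in B16F10 tumours, against 512 ± 315 CPM in B16F0 tumours, and Esm1 at 373 ± 361 and 414 ± 456 CPM in the same groups.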

How the data were processed

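Ribosome-bound mRNA in 12 tumour libraries (ScriptSeq kit, per the labels) was given as raw counts, whole reads for each gene, deposited by the authors. Per the submitters' processing notes, the authors used featureCounts 1.6.0, STAR 2.2.1 on mm10, cutadapt 1.16, R 3.3.2 and edgeR. Neither annotation nor strand setting is given in the sources used here. The authors' comparison table and normalized table were not used. The lane came from the library names. Counts were filtered with filterByExpr of edgeR 4.0.16 (minimum count 10), scaled by TMM and tested by quasi-likelihood under R 4.3.3, with terms for lane and tumour line, Benjamini-Hochberg adjusted over 13534 of 24421 symbols at 0.05. The SE was taken as the ratio of the log2 fold change to the root of its F statistic. Slopes used limma 3.58.1. Log2 CPM had a prior count of 2. Of the called pathway genes up to 8 per list were to be named, and otherwise the 2 with the highest CPM. Exon lengths are unions over GENCODE M21. The genes and lists were chosen with earlier results of these data known. Alternatives included DESeq2 1.42.0. Tests were run on counts simulated from the fitted edgeR model, drawn independently for each library, and slopes on a random score. This does not cover linked libraries or scores that rest on few libraries. Counting limits cover counting error only. Chi-square of counts per degree of freedom, without a p-value, was taken for each pair of libraries of a group. No pair had the same counts. The value was lowest for B16F10 replicates 1 and 2, at 7.07, and next lowest for B16F10 replicates 6 and 7, at 25.8.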

Additional observations from a re-analysis of the deposited data

Results flagged for a closer look

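Hyal2 stood at 19 CPM in B16F10 replicate 5, and the next of the 7 B16F10 libraries was at 11.6 CPM. Its gap to the others was 0.636 of the group's range. Rn45s took 31.4% of that library's counts, and its part in the value was not tested. Ncan stood at 0.524 CPM (5 reads) in B16F0 replicate 5, with the next of the 5 B16F0 libraries at 0.171 CPM. In 20 groups of libraries examined this way for the 10 genes, 2 had a library this far out. Chance gives about 1 in 20 for normally distributed values. The gaps were taken on CPM, with some genes near 0, so that rate need not hold here.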

How the results depend on the processing

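The log2 fold change of Hapln4 lay between -4.17 and -3.42 over 25 alternatives, with the same direction in each. The number of the 10 genes past the threshold was 1 in all alternatives but DESeq2, which gave 2, Hapln4 and Hapln1, both lower in B16F10. The call of Hapln1 therefore depends on the tool, and DESeq2 also called a larger share of all genes than edgeR in each direction. Of the pathway genes, 2 were called in the reported fit, 1 without the lane term, with limma-voom, without lane 2, with the receptor gene reads or with the fibroblast and pericyte score as a covariate, 0 without the libraries rich in Rn45s, 5 with DESeq2, and 1 to 4 when single libraries were left out. The fold change of Hapln1 moved to -0.31 with the receptor gene reads as a covariate. The number following the endothelial score was 0 or 1 when single libraries were left out. For the melanocytic score it was 2, and 4 at a false discovery rate of 0.1, 0 without the 3 libraries of highest score and 1 to 3 without single libraries. For the fibroblast and pericyte score it was 1, and 2 with limma-trend, without a filter or at a rate of 0.1, 0 without the 3 libraries of highest score or those rich in Rn45s, and 0 to 2 without single libraries. For the receptor gene reads it was 3, and 0 without lane 2 and 0 to 4 without single libraries. Of the pathway genes 16 followed the endothelial score, 0 without the 3 libraries of highest score and 13 to 25 without single libraries. With the library-name prefix in place of the lane, 0 of the 10 genes followed the melanocytic or the fibroblast and pericyte score and 1 followed the receptor gene reads. With the replicate number as a block in place of the lane, 0 pathway genes were called and 0 of the 10 genes followed the melanocytic or the fibroblast and pericyte score. Samples of the same number correlated by -0.29 to 0.32 in their deviations from the group means, and 1 of 5 correlated best with its own number, so the numbers do not pair the samples. The best match of B16F10 replicates 3 and 4 was the B16F0 library of the same prefix (0.737 and 0.547). The causes of these changes were not tested. Depth limits Hapln3, Ncan, Bcan and Has2 most, with at most 56 reads per library.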

Other observations

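Other genes of the hyaluronan and proteoglycan pathway varied with the endothelial score. None of the 8 fitted genes above passed there (limma), and the difference between them and the pathway genes was not tested. Of 85 fitted pathway genes 14 had a positive and 2 a negative slope past the threshold (limma, Benjamini-Hochberg over all genes), beside 4.81% and 0.436% of all fitted genes. Those named here were picked after their values were seen. Stab1, a scavenger receptor of sinusoidal endothelium, had a slope of 0.90 (limma adjusted p = 2.83e-05), and Tmem2, a cell-surface hyaluronidase, one of 0.66 (0.001). Col18a1, a basement membrane proteoglycan, had one of 1.15 (9.24e-05), and the protease gene Adamts9 one of 1.39 (0.000861). In chondroitin sulfate assembly, Chst15, Chst7, Csgalnact1 and Chst11 had slopes of 1.13, 1.19, 0.95 and 0.76. All 8 of these genes also had a negative slope on the melanocytic score past the threshold, from -4.79 for Adamts9 to -2.0 for Tmem2, and Fbln1 had a positive one of 1.93. Of the 85 genes 11 had a positive and 28 a negative slope on that score, beside 16.2% and 17.7% of all fitted genes. The part of melanocytic transcripts in the endothelial slopes was not tested. The negative slopes on the endothelial score were those of Ugp2 (-0.52) and Fbln1 (-0.55). No gene passed without the 3 libraries of highest score, B16F10 replicates 4 and 5 and B16F0 replicate 3.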
